A study of Mus musculus with 9 samples.

Results

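Hoxa13 peaks listed for the E12.5 limb bud (E counts embryonic days) that met no listed peak of 2 earlier stages are described here. Hoxa13 is a homeodomain transcription factor of the posterior end of the HoxA cluster. It is needed for the autopod, the part of the limb that forms the hand or foot, and in the mouse it acts there together with Hoxd13, partly through distant enhancers of the HoxD and HoxA genes. Hoxa11, a related factor, is active in the zone that forms the forearm and lower leg. Binding was mapped by ChIP-seq (chromatin immunoprecipitation followed by sequencing), in which an antibody recovers the DNA a protein sits on and a peak is a stretch where the recovered reads pile up.

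The E12.5-alone peaks were chosen by position: they are the peaks of the E12.5 list that shared no base pair with any Hoxa13 peak of E11.0 or E11.5. They numbered 10935 of the 44699 E12.5 peaks, which is 24.5% (95% interval 24.1 to 24.9), and of the 243649 peaks in all 5 deposited lists. Together they covered 1.63 of the 7.995 Mb under E12.5 peaks. Of the remaining 33764 E12.5 peaks, 13760 overlapped both earlier stages, 17855 overlapped E11.5 only and 2149 overlapped E11.0 only. These numbers follow from the rule and are not a finding about stages.

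Every library came from wild-type ICR embryos, with no treatment. Hoxa13 was precipitated from E11.0 autopods (11 pairs of autopods pooled), from whole E11.5 limb buds of 1 litter and from E12.5 limb buds, with 1 library per stage and home-made antibodies. Hoxa11 was precipitated from E11.5 limb buds in replicates 1 and 2, for which the labels name no separate litters. Input DNA was sequenced for 4 further libraries, which were not analysed here. The E12.5 chromatin and library were made by an earlier published procedure and those of E11.0 and E11.5 by another, so stage and procedure cannot be told apart in any value below. A peak list gives no expression, so the labelled tissues could not be checked against marker genes.

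The lists differed in length and peak width. The E11.0 list held 50890 peaks, the E11.5 list 143460 and the E12.5 list 44699, with median widths of 245, 286 and 154 bp and a narrowest peak of 187, 203 and 110 bp. The sources used here do not give read depth. With 1 library per Hoxa13 stage there is no replicate check and no test between stages. All intervals are exact Clopper-Pearson intervals at 95%, which cover counting error over peaks only. Positions are 1-based in the mouse build mm9. No genome or annotation of mm9 was used, so peaks were not assigned to genes and no sequence is shown.

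E12.5-alone peaks were the narrowest class of E12.5 peaks. Their median width was 135 bp (134 to 136), with quartiles at 116 and 165 bp. E12.5 peaks found at both earlier stages had a median of 186 bp, those shared with E11.5 only 151 bp and those shared with E11.0 only 150 bp. Over all shared E12.5 peaks the median was 163 bp (162 to 164). The narrowest width in the list, 110 bp, was held by 1575 E12.5-alone peaks, or 14.4% (13.8 to 15.1). Over the whole E12.5 list that width took 8.63% of peaks, and among peaks shared with an earlier stage 6.77% (6.50 to 7.04). At the other end, 154 E12.5-alone peaks (1.41%) reached 300 bp, against 8.69% of shared peaks.

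Read the other way, the share of E12.5 peaks found at that stage alone fell with each step in width. It was 37.7% among peaks of 110 to 125 bp, 28.6% from 126 to 154 bp, 21.3% from 155 to 201 bp and 10.2% (9.61 to 10.7) above that. A narrow peak has less sequence in which to meet another, so width is tied to the rule. How much of the fall comes from this was not tested, and these values are a description.

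**Figure D1:**
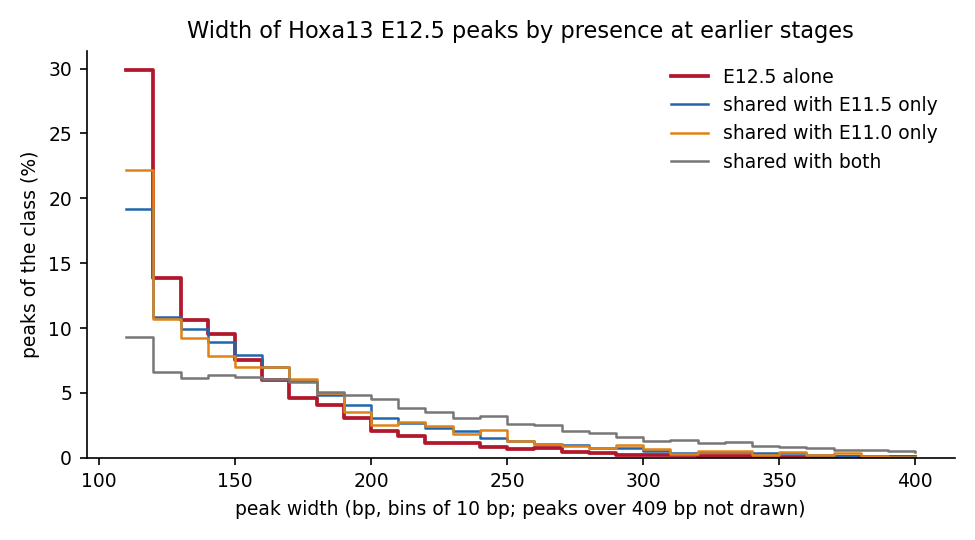
The horizontal axis is the width of Hoxa13 E12.5 peaks in bins of 10 bp and the vertical axis the percentage of each class in the bin. The E12.5-alone line is the highest at the narrow end, where 14.4% of its peaks have the minimum of 110 bp, and the line of peaks shared with both earlier stages (median 186 bp) is the flattest.

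The 10 widest E12.5-alone peaks outside dense windows (1 Mb windows with far more E12.5 peaks than most, defined below) lay on 10 different chromosomes. The widest, of 1330 bp on chromosome 17 from 39984429 to 39985758, began 136 bp from the next E12.5 peak and 391 bp from an E11.0 peak. It overlapped a Hoxa11 peak of replicate 2 and none of replicate 1. The deposited fold enrichment of that Hoxa11 peak was 1.67, below the first quartile of the replicate 2 list (3.27). Whether the chromosome 17 peak lies in repeated sequence was not tested. The second, of 711 bp on chromosome 19 from 14361595 to 14362305, was 5701 bp from the nearest earlier peak and overlapped no Hoxa11 peak. The third lay on chromosome 11 from 3089289 to 3089940 (652 bp), inside the long run of peaks described below.

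The other 7 were between 444 and 578 bp wide. They lay on chromosome 8 (32748819 to 32749396), chromosome 16 (57391250 to 57391796), chromosome 1 (188189623 to 188190152), chromosome 2 (169669060 to 169669587), chromosome X (148667327 to 148667813), chromosome 14 (28882971 to 28883451) and chromosome 3 (5860365 to 5860808). Their gaps to the nearest earlier Hoxa13 peak ran from 748 bp on chromosome 14 to 78223 bp on chromosome X. None of the 7 overlapped a Hoxa11 peak. A peak of either Hoxa11 replicate was overlapped by 1.02% of all E12.5-alone peaks and 4.09% of the whole E12.5 list. Inside dense windows or on unplaced sequence, 2 further E12.5-alone peaks were wider than the last of the 10. The widest peaks therefore included both near neighbours of earlier sites and sites far from any.

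Most E12.5-alone peaks (76.8%) lay within 10 kb of an earlier Hoxa13 peak without sharing a base pair with it. The earlier lists are long, and how often other positions of the genome lie as near was not tested. The values thus cannot show whether or not E12.5-alone peaks cluster by earlier sites. The gap between edges had a median of 4.09 kb, with quartiles at 1.50 and 9.41 kb. To the nearest E11.5 peak alone the median gap was 5.29 kb and to the nearest E11.0 peak 13.1 kb. The nearest earlier peak belonged to E11.5 for 8053 of them (73.6%) and to E11.0 for 2871, with equal gaps for 11. The E11.5 list was the longest by far, with 143460 peaks against 50890 at E11.0, so a nearer E11.5 neighbour is favoured by its length.

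By gap, 252 E12.5-alone peaks (2.31%) lay within 100 bp of an earlier peak, 1639 (14.99%) between 101 and 1000 bp and 6509 (59.5%) between 1001 and 10000 bp. A further 2503 (22.9%) lay between 10001 and 100000 bp, and 32 (0.293%) lay farther. Within 1 kb there were thus 1891 (17.3%, 16.6 to 18.0). Width barely moved along this series: the median was 138.5 bp within 100 bp and 136, 135 and 134 bp in the next 3 classes. It was 123 bp over the 32 most distant peaks.

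**Figure D2:**
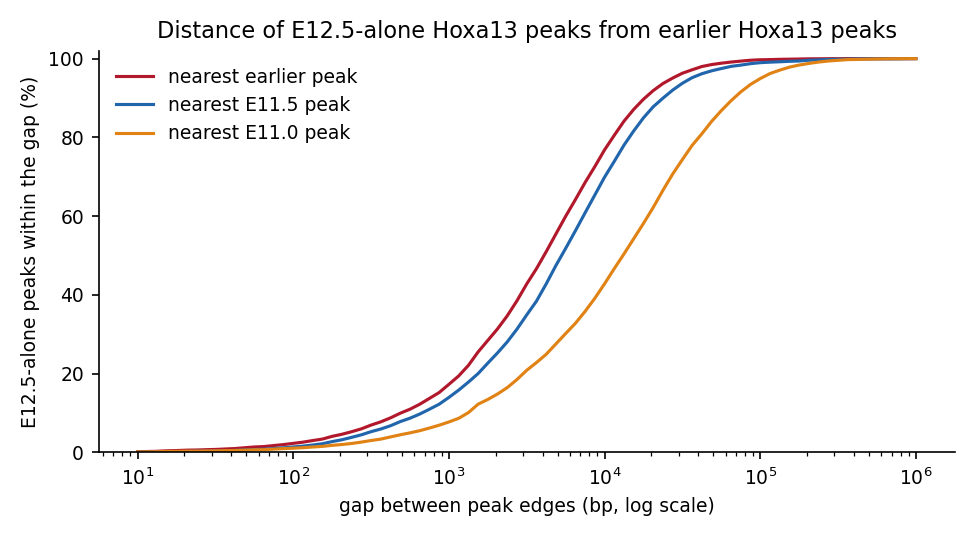
The horizontal axis, on a log scale, is the gap in bp between the edges of an E12.5-alone peak and a Hoxa13 peak of an earlier stage, and the vertical axis the percentage of the 10935 peaks with a gap up to that size. The lines for any earlier peak, E11.5 and E11.0 cross the midpoint at medians of 4.09, 5.29 and 13.1 kb.

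At the border of the rule, 1 E12.5-alone peak touched an earlier peak with no base shared, on chromosome 1 from 3378667 to 3378857, beside an E11.0 peak. Another 17 had a gap of 1 to 10 bp. The nearest of these were on chromosome 4 from 145338951 to 145339069, 2 bp from an E11.0 peak, and on chromosome 1 from 96364570 to 96364709, 3 bp from an E11.5 peak. Just outside the rule, 35 shared E12.5 peaks met earlier peaks by no more than 10 bp. Those on chromosome 1 (179160584 to 179160693), chromosome 2 (123599761 to 123599879) and chromosome 5 (16969094 to 16969258) did so by 1 bp. The border thus divided few peaks, next to the 10935 chosen.

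How many peaks count as E12.5 alone depended on the overlap asked for and on the length of the E11.5 list. With overlap of at least 50% of both peaks required, 26899 E12.5 peaks lacked an earlier partner. E12.5 peaks were much narrower than E11.5 peaks (medians 154 and 286 bp), so this rise is partly built in. With the E11.5 list limited to its widest 44699 peaks, 19857 did. Among the wider 50% of E12.5 peaks, 3514 of 22349 (15.7%) were E12.5 alone.

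The peaks farthest from earlier peaks were few. Of the 32 with a gap over 100 kb, 13 lay on unplaced sequence, 12 of them on Y_random, and the others on chromosomes 4 (6 peaks), 5, 7 and X (4 each) and 13 (1). The most distant on an assembled chromosome was a 165 bp peak on chromosome X from 144627825 to 144627989, with 354896 bp to an E11.0 peak. Next came chromosome 7 from 19802911 to 19803020 (gap 210844 bp), chromosome 5 from 125364280 to 125364419 (187466 bp), chromosome 7 from 134296302 to 134296411 (186383 bp) and chromosome 4 from 113389319 to 113389438 (179370 bp). Those on chromosome 7 had the minimum width of 110 bp. None of the 5 overlapped a Hoxa11 peak, which 1.02% of all E12.5-alone peaks did.

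Within their own list, E12.5-alone peaks had a close neighbour about as often as the pooled shared E12.5 peaks. Another E12.5 peak lay within 10 kb of 4436 of them, or 40.6% (39.6 to 41.5), against 40.5% of the whole list and 40.5% (40.0 to 41.0) of the shared peaks. Among the shared classes the value ran from 38.2% with E11.5 only to 50.6% with E11.0 only. Those neighbours were mostly shared peaks: 3481 E12.5-alone peaks (31.8%) had a shared E12.5 peak within 10 kb and 1805 (16.5%) had another E12.5-alone peak. The order of the E12.5-alone and shared values turned with the setting. E12.5-alone peaks gave the lower value without earlier peaks within 1 kb (35.9% against 41.7%), with the E11.5 list limited to its widest peaks (38.2% against 42.4%) and without dense windows and unplaced sequence (37.3% against 38.5%). They gave the higher value with 50% reciprocal overlap (41.3% against 39.3%), against E11.5 only (42.2% against 39.8%) and among the wider 50% of peaks (29.5% against 27.4%).

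Such neighbours were most frequent near earlier sites. An E12.5 neighbour within 10 kb was found for 61.1% of E12.5-alone peaks that lay within 100 bp of an earlier peak and 63.1% of those at 101 to 1000 bp. The share was 45.1% at 1001 to 10000 bp and 12.4% at 10001 to 100000 bp. A shared E12.5 peak overlaps an earlier peak by the rule, so peaks far from earlier sites can have few shared neighbours. The fall is thus partly built in and is a description. Dense windows or unplaced sequence held 14.3%, 16.1%, 6.22% and 6.15% of these classes in turn. In all, 2222 E12.5-alone peaks (20.3%) had no Hoxa13 peak of any stage within 10 kb. These isolated peaks had a median width of 133 bp, and 93 of them were in dense windows or on unplaced sequence.

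Taken in order along the chromosomes, with gaps up to 10 kb allowed, 9130 E12.5-alone peaks (83.5%) stood singly, 569 runs held 2, 104 runs held 3 or 4, and 43 runs held 5 or more. The 43 long runs took 330 peaks, and 29 of these runs, with 204 peaks, lay in dense windows or on unplaced sequence.

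The longest run stood apart from the rest. It lay near the start of chromosome 11, from 3022860 to 3100032, and packed 47 E12.5-alone peaks into 77.2 kb. The same stretch held 4 shared E12.5 peaks, 4 E11.0 peaks, 3 E11.5 peaks and none of either Hoxa11 replicate. Its E12.5-alone peaks were wide for their class, with a median of 216 bp and a range of 114 to 652 bp. The median step from one start to the next was 977 bp. The earlier lists were thus not empty here, but they held fewer than 5 peaks each where E12.5 held 51 in all, counting shared and E12.5-alone peaks.

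The next longest run, on chromosome X from 120153164 to 120199103, held 25 E12.5-alone peaks among 17 shared ones in 45.9 kb. In contrast to chromosome 11 it was dense at every stage and for both proteins, with 15 E11.0 peaks, 20 E11.5 peaks, 17 of Hoxa11 replicate 1 and 19 of replicate 2. Runs of 9 followed on chromosome 7 (10565994 to 10595290), on Un_random (4517280 to 4535967, with no shared E12.5 peak inside) and at 2 places on Y_random. Whether repeated sequence moved with these runs was not tested.

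**Figure D3:**
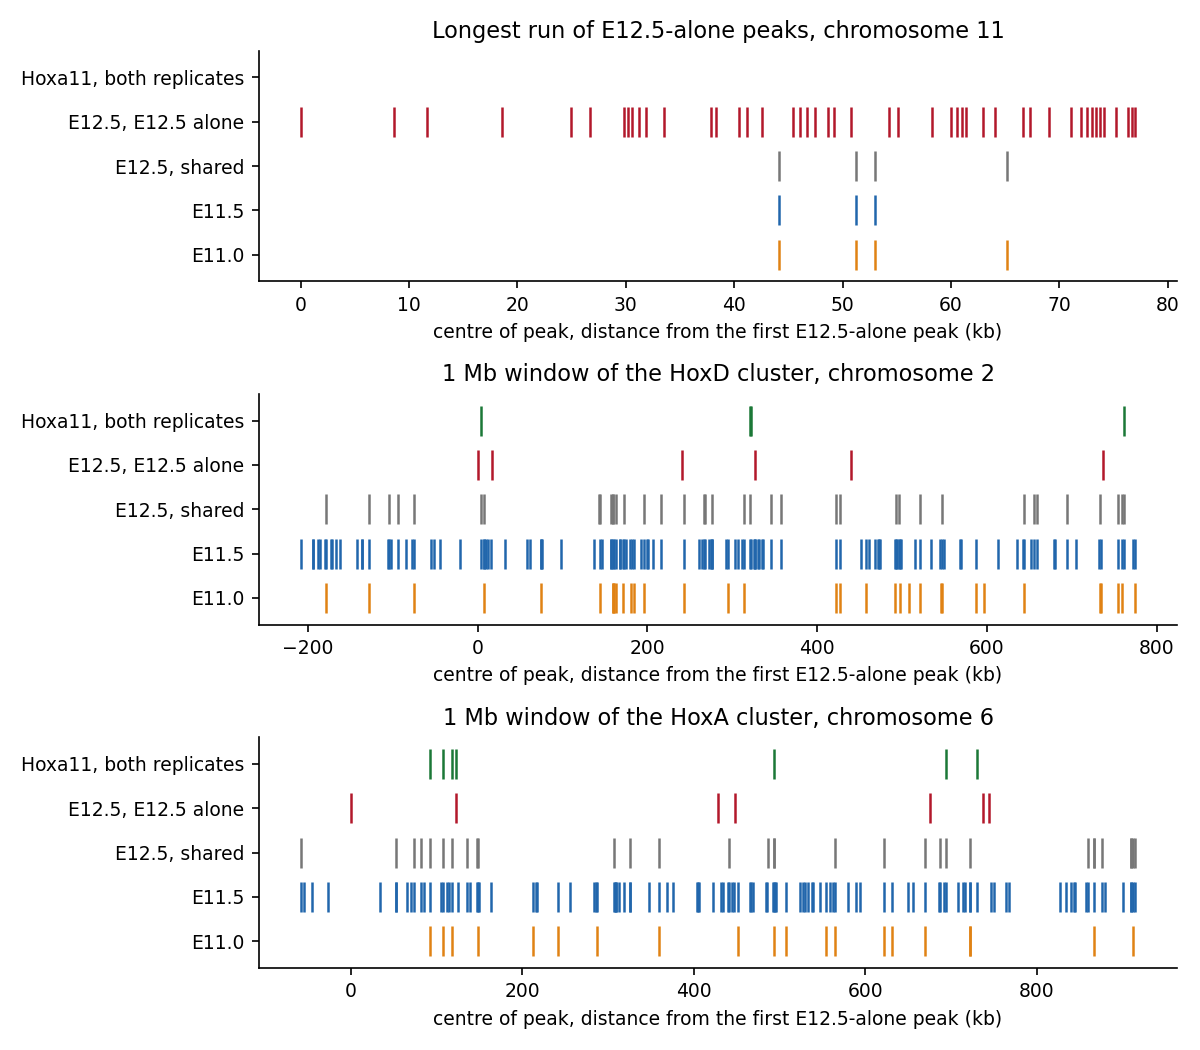
Each tick is the centre of a peak, placed by its distance in kb from the first E12.5-alone peak of the panel, with a row each for Hoxa13 E11.0, E11.5, E12.5 shared with an earlier stage, E12.5 alone, and Hoxa11 sites of both replicates. The chromosome 11 panel shows 47 E12.5-alone ticks over 4 or fewer in any other row, while the windows of the HoxD and HoxA clusters show 6 and 7 E12.5-alone ticks among 38 and 31 shared ones.

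E12.5-alone peaks were spread over all assembled chromosomes, but not in equal shares of the E12.5 peaks there. Among the autosomes the E12.5-alone share was lowest on chromosome 16, at 20.3% (18.5 to 22.1), and highest on chromosome 7, at 30.4% (28.3 to 32.4). Chromosome X gave 31.1% (29.0 to 33.1), or 622 of 2003 peaks. Chromosome Y gave 19.6% of 46 peaks, with an interval of 9.36 to 33.9. On unplaced sequence 428 of 829 peaks were E12.5 alone. Those with over 100 peaks gave 302 of 548 on Y_random (55.1%, 50.8 to 59.3) and 70 of 120 on Un_random (58.3%, 49.0 to 67.3). The share was lower on 8_random (30 of 64), 1_random (14 of 36) and 4_random (3 of 35), and the others held fewer than 10 peaks each. The 44699 peaks together gave 24.5%.

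Seen from the peaks themselves, 5.69% of E12.5-alone peaks (5.26 to 6.14) lay on chromosome X, against 4.48% of the E12.5 list and 4.09% (3.88 to 4.31) of the shared peaks. Unplaced sequence held 3.91% of them (3.56 to 4.30) and 1.19% of the shared peaks. The shared classes differed among themselves. Peaks shared with E11.0 only stood above the E12.5-alone peaks, with 268 of 2149 on X (11.1% to 13.9%) and 5.54% on unplaced sequence (4.61 to 6.59). Peaks shared with E11.5 only stood below them, with 2.78% and 0.482%, and peaks of all 3 stages gave 4.48% and 1.42%.

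A 1 Mb window of an assembled chromosome was taken as dense where it held over 65 E12.5 peaks, which is the third quartile of 23 plus 3 interquartile ranges. There were 15 such windows among 2590. Dense windows or unplaced sequence held 872 E12.5-alone peaks, or 7.97% (7.47 to 8.50), against 5.09% of the whole list and 4.15% of shared peaks. Dense windows by themselves held 4.06% of E12.5-alone peaks, 3.76% of peaks of all 3 stages, 0.818% of those shared with E11.5 only and 15.7% of those shared with E11.0 only. Without dense windows and unplaced sequence the chromosome X share of E12.5-alone peaks was 3.90%, against 2.79% of shared peaks. On the chromosomes, 30.3% of X peaks (27.8 to 32.9) and 29.4% of chromosome 7 peaks (27.3 to 31.5) were then E12.5 alone, close to the values with all windows.

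**Figure D4:**
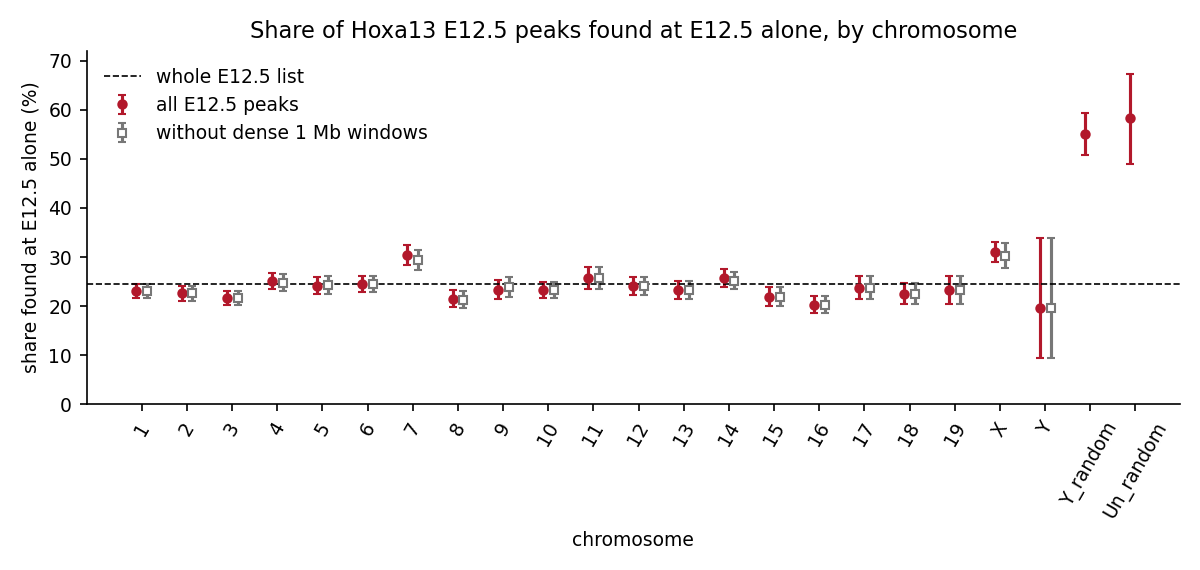
The vertical axis is the percentage of a chromosome's Hoxa13 E12.5 peaks that were found at E12.5 alone, with exact 95% intervals as bars, for all peaks (filled) and without dense 1 Mb windows (open squares). Chromosomes 7 (30.4%) and X (31.1%) lie above the dashed line of the whole list (24.5%) with either set, and Y_random and Un_random lie above all assembled chromosomes.

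The 1 Mb windows richest in E12.5-alone peaks were mostly dense windows. A scored window held a median of 3 E12.5-alone peaks and 15 E12.5 peaks, and 2422 windows held at least 1. Richest was Y_random from 17000001 to 18000000, with 71 of 138 E12.5 peaks. Chromosome 11 from 3000001 to 4000000 followed with 50 of 58 (86.2%, 74.6 to 93.9), where the E11.0 list held 9 peaks and the E11.5 list 23. It was the 1 window of the 10 richest on an assembled chromosome that was not dense.

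The remaining 8 windows were dense and held 33 to 42 E12.5-alone peaks each. Chromosome X had 5 of them, starting at 31000001 (38 of 104), 4000001 (36 of 112), 3000001 (33 of 97), 30000001 (33 of 98) and 120000001 (33 of 108). The others began on chromosome 7 at 9000001 (42 of 77), on chromosome 14 at 43000001 (34 of 80) and on chromosome 4 at 146000001 (34 of 116). Between 29.3% and 54.5% of the E12.5 peaks in these dense windows were E12.5 alone. Each window also held 50 to 181 E11.0 peaks and 62 to 109 E11.5 peaks. The dense bound was set on the E12.5 list, and the E11.5 list is much longer, so its counts cannot be judged by that bound. In the chromosome X window from 120000001 there were also 23 Hoxa11 sites of both replicates, and in the other 7 there were 0.

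A majority of E12.5 peaks were E12.5 alone in 35 of the 1894 windows with at least 10 peaks. Chromosome 7 held 11 of these 35 windows, chromosome 1 held 4, and chromosomes 5 and X held 3 each. Apart from chromosome 11, the windows with the most such peaks were on chromosome 7 from 9000001 (42 of 77) and from 7000001 (31 of 50), on chromosome 3 from 15000001 (19 of 25) and on chromosome 12 from 116000001 (18 of 30). These windows were picked by their share, which is a description. In the fourth Mb of the chromosomes, from 3000001 to 4000000, 208 of 581 E12.5 peaks (35.8%, 31.9 to 39.9) were E12.5 alone. Without chromosome 11 the share was 30.2% (26.3 to 34.4), and over the whole E12.5 list it was 24.5%. The dense chromosome X window from 3000001 (33 of 97) lies at this place too. Whether chromosome starts differ in general was not tested.

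Around the Hox clusters, E12.5-alone peaks were a minority of the E12.5 sites. The 1 Mb windows that hold HoxA, HoxB, HoxC and HoxD, placed from general knowledge of mm9, contained 105 E12.5 peaks, of which 19 (18.1%, 11.3 to 26.8) were E12.5 alone. The interval takes in the 24.5% of the whole list. By cluster they numbered 7 of 38 at HoxA, 3 of 11 at HoxB, 3 of 12 at HoxC and 6 of 44 at HoxD. In the same windows the E11.5 list held 114 peaks at HoxA, 37 at HoxB, 52 at HoxC and 129 at HoxD. The E11.0 list held 20, 8, 10 and 34. With 50% reciprocal overlap the 19 became 69, and with the E11.5 list limited to its widest peaks they became 33.

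The HoxD window on chromosome 2 carries the cluster whose posterior genes pattern the digits. Its 6 E12.5-alone peaks were 111 to 189 bp wide. That from 74541425 to 74541535 lay 62 bp from an E11.5 peak, and that from 74231427 to 74231615 lay 374 bp from one. The peak from 74455825 to 74455945 was 1439 bp from an E11.5 peak and 97 bp from a Hoxa11 peak of replicate 1, but 79161 bp from any site of both replicates. The peaks from 74214789 to 74214925 and from 74951194 to 74951323 lay 3887 and 1386 bp from E11.5 peaks. Only the sixth, from 74654385 to 74654510, was over 10 kb from every earlier peak, at 11848 bp.

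In the HoxA window on chromosome 6, which carries Hoxa13 and Hoxa11 themselves, the widest of 7 E12.5-alone peaks ran from 52181529 to 52181735 (207 bp). It lay 1621 bp from an E11.5 peak and 124 bp from a Hoxa11 site of both replicates. The peak from 52506192 to 52506360 was 434 bp from an E11.5 peak. The other 5, at 52058748 to 52058859, 52487163 to 52487273, 52734368 to 52734512, 52795981 to 52796090 and 52802845 to 52802984, lay 2441 to 26906 bp from the nearest earlier peak. Of the 19 peaks in the 4 windows, none overlapped a Hoxa11 peak of either replicate. Only 1.02% of all E12.5-alone peaks did, so 19 peaks are too few to set these windows apart.

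The HoxB window on chromosome 11 held E12.5-alone peaks at 96052772 to 96052943, 96382105 to 96382252 and 96847975 to 96848137, which were 2140, 13090 and 3298 bp from E11.5 peaks. In the HoxC window on chromosome 15 they were at 102600044 to 102600169, 102675996 to 102676179 and 102765874 to 102765983, with gaps of 18828, 1233 and 656 bp. The last lay 883 bp from a Hoxa11 peak of replicate 2.

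The Hoxa11 libraries were not used to choose the peaks, but they were made at E11.5. The rule removes E12.5 peaks that met a Hoxa13 peak of that stage, so a low share may be partly built in, which was not tested. Few E12.5 peaks of any class met Hoxa11, and E12.5-alone peaks did so less often than the pooled shared peaks. A Hoxa11 site is here an interval merged from peaks of replicates 1 and 2 that overlapped each other, 1023 in all. Of the E12.5-alone peaks, 38 (0.348%, 0.246 to 0.477) met such a site, against 1.72% of the whole E12.5 list. Among peaks shared with an earlier stage 731 (2.17%, 2.01 to 2.33) did. By class, the share was 2.27% of peaks found at both earlier stages, 2.30% of those shared with E11.5 only and 0.419% (0.192 to 0.794) of those shared with E11.0 only. E12.5-alone peaks thus stood near the E11.0 class and below the classes present at E11.5, the stage at which Hoxa11 was mapped. No test was made, because peaks are not replicates. By their titles Hoxa11 replicate 1 and Hoxa13 at E11.5 have an input library in common, and its part in these shares was not tested.

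In each single Hoxa11 list E12.5-alone peaks also gave a lower share than the pooled shared peaks, but the place of the E11.0 class changed. Replicate 1 met 91 E12.5-alone peaks (0.832%, 0.671 to 1.02), against 3.4% of all E12.5 peaks and 4.24% of shared ones, and the class shared with E11.0 only was lower still at 0.512% (0.256 to 0.914). Replicate 2 met 54 (0.494%, 0.371 to 0.644), against 2.3% of all and 2.89% of shared peaks. In replicate 2 the class shared with E11.0 only gave 4.65% (3.80 to 5.63), above the classes with E11.5. Among E12.5-alone peaks, 33 met both replicates directly, 58 replicate 1 only and 21 replicate 2 only. With E12.5-alone peaks defined by 50% reciprocal overlap, 1.25% met a Hoxa11 site.

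The share that met a Hoxa11 site rose with peak width, and E12.5-alone peaks stood below shared peaks in each of 4 width classes. Among peaks of 110 to 125 bp, 0.211% of E12.5-alone and 0.495% of shared peaks met a Hoxa11 site, with intervals of 0.0963 to 0.399 and 0.345 to 0.687 that overlap. From 126 to 154 bp the shares were 0.222% (0.0894 to 0.457) and 0.762% (0.582 to 0.979), and from 155 to 201 bp 0.463% (0.231 to 0.826) and 1.10% (0.895 to 1.34). Above 201 bp they were 0.972% (0.486 to 1.73) and 5.39% (4.95 to 5.85). In that last class the E12.5-alone peaks were still the narrower ones, with a median of 235 bp against 256 bp.

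**Figure D5:**
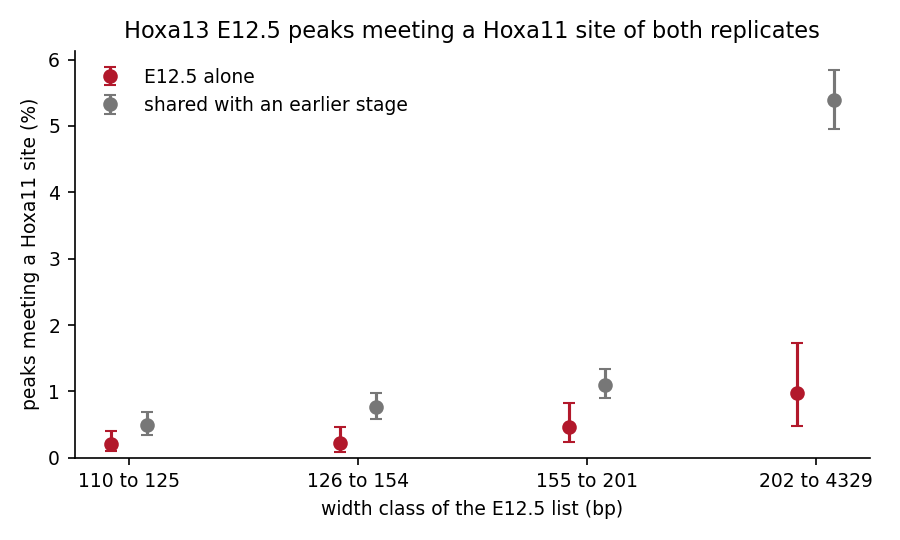
The vertical axis is the percentage of Hoxa13 E12.5 peaks that met a Hoxa11 site of both replicates, with exact 95% intervals, in 4 classes of peak width in bp. E12.5-alone peaks lie below shared peaks in each class, from 0.211% against 0.495% in the narrowest to 0.972% against 5.39% in the widest.

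The 38 E12.5-alone peaks with a Hoxa11 site were wider than the rest, with a median of 170 bp against 135 bp. They met 38 Hoxa11 sites. For 30 of these sites no Hoxa13 peak was found at E11.0 or E11.5, and the other 8 met an earlier Hoxa13 peak elsewhere in their length. Chromosome X carried 12 of the 38 peaks, and 11 of these were in dense windows. Outside dense windows and unplaced sequence 26 peaks remained, which is 0.258% (0.169 to 0.378) of the E12.5-alone peaks there, against 1.85% of shared peaks.

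Hoxa11 sites were more frequent at E12.5-alone peaks close to earlier Hoxa13 binding. Within 1 kb of an earlier peak 17 of 1891 met one (0.899%, 0.525 to 1.44), and beyond 1 kb 21 of 9044 did (0.232%, 0.144 to 0.355). The difference was smaller outside dense windows. Outside them and unplaced sequence the shares were 6 of 1591 (0.377%, 0.139 to 0.819) and 20 of 8472 (0.236%, 0.144 to 0.364), with overlapping intervals. Among the 2222 isolated peaks, 5 met a Hoxa11 site (0.225%, 0.0731 to 0.524).

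Where they met E12.5-alone peaks, the Hoxa11 peaks of replicate 2 had a median strength near that of their whole list. Fold enrichment over the caller's background is the authors' own value and is given for replicate 2 only. Over the 53 replicate 2 peaks that met an E12.5-alone peak its median was 3.71 (quartiles 3.39 and 4.99) and its maximum 7.64. Over the 869 that met a shared E12.5 peak the median was 4.07 (3.41 and 5.20) and the maximum 17.7. Over the 729 that met no E12.5 peak the median was 3.68 (3.19 and 4.23). The whole replicate 2 list of 1647 peaks had a median of 3.90 (3.27 and 4.68). The quartile ranges of these sets overlapped.

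Of the E12.5-alone peaks that met both Hoxa11 replicates, the 5 with the highest fold enrichment in replicate 2 included 3 in dense windows of chromosome X. They lay at 122177020 to 122177133 (7.64-fold), 120605673 to 120605862 (7.48-fold) and 121859554 to 121859684 (6.70-fold), and were 63, 293 and 17 bp from an E11.5 Hoxa13 peak. The other 2 were outside such windows. A 313 bp peak on chromosome 10 from 110348440 to 110348752 was 7.54-fold enriched for Hoxa11, with a deposited −log10 q of 28.6, and lay 480 bp from an E11.0 peak. A 122 bp peak on chromosome 4 from 116862493 to 116862614 was 7.13-fold enriched, with a −log10 q of 33.7, and had no earlier Hoxa13 peak within 11967 bp. It was the 1 site of the 5 that was distant from all Hoxa13 peaks of earlier stages.

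Peaks found at a single stage were also narrow and rarely met Hoxa11 at the other stages. At E11.5 alone there were 96662 peaks (67.4% of that list) and at E11.0 alone 19311 (37.9%). The median width of single-stage peaks was 0.828 times that of shared peaks at E12.5, 0.783 times at E11.5 (267 against 341 bp) and 0.855 times at E11.0 (224 against 262 bp). A Hoxa11 site was met by 0.348% of E12.5-alone peaks (0.246 to 0.477), 0.183% of E11.5-alone peaks (0.157 to 0.212) and 0.0725% of E11.0-alone peaks (0.0396 to 0.122), against 2.17%, 1.44% and 1.08% of the shared peaks of each list. Chromosome X held 5.69% of the E12.5-alone, 3.02% of the E11.5-alone and 9.63% of the E11.0-alone peaks, against 4.09%, 3.44% and 4.43% of the shared peaks of each list. The single-stage share was thus the higher one at E12.5 and E11.0 and the lower one at E11.5. Unplaced sequence held 3.91% of the E12.5-alone, 0.18% of the E11.5-alone and 2.59% of the E11.0-alone peaks. The shared peaks of each list gave 1.19%, 0.88% and 1.49%, so the order was the same as on X. The lists differ in length and width, so these shares are set side by side without a test.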

How the data were processed

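Hoxa13 and Hoxa11 ChIP-seq peak lists of 5 libraries were used. The tools named in the submitters' processing notes are MACS2 2.1.0, Bowtie2 2.2.2 and CASAVA 1.4, with mm9 as build; roles, thresholds and duplicate handling are not given in the sources used here. Each deposited list belongs to 1 library. For 4 lists the authors deposited chromosome, start and end only. The Hoxa11 replicate 2 list also holds the authors' score (not used), a deposited fold enrichment (a ratio to background) and deposited −log10 p and −log10 q values.

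The rule, lists and windows were chosen with earlier results of these data known. Peaks overlapped when they shared at least 1 bp, and gaps run between edges. Overlap functions were tested on simulated data. Named peaks were fixed as the 10 widest outside dense windows, the 5 that met both Hoxa11 replicates with the highest replicate 2 fold, the 5 farthest and those nearest the border, besides the 10 richest windows and the 4 Hox windows; other windows were named after their values were seen. The planned motif counts and nearest genes were not run, since the reference at hand is of another build. Python 3.11.15, pandas 2.3.3, NumPy 2.4.6 and SciPy 1.17.1 were used.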

Additional observations from a re-analysis of the deposited data

How the results depend on the processing

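Alternatives were a 50% reciprocal overlap, no earlier peak within 1 kb, the widest 44699 E11.5 peaks and the wider 50% of E12.5 peaks. Further alternatives left out both unplaced sequence and dense windows (below, "without dense windows") or took E11.5 as the only earlier stage. E12.5-alone peaks were narrower than other E12.5 peaks, met Hoxa11 less often and lay on chromosome X more often under all of these. Under reciprocal overlap the X shares were 4.49% and 4.47%. An E12.5 peak narrower than 50% of an earlier peak cannot meet it under reciprocal overlap. The width order there (medians 135 and 198 bp) is thus partly built in and adds no separate support.

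The number of E12.5-alone peaks was 26899 under reciprocal overlap, 19857 with the shorter E11.5 list and 3514 in the wider 50%. Their median width was 138 bp with the shorter E11.5 list, 184 bp in the wider 50% and 137 bp against E11.5 only. The share meeting Hoxa11 was 1.25% under reciprocal overlap of the stages, 0.232% without peaks within 1 kb, 0.626% in the wider 50%, 1.02% with the union of both Hoxa11 replicates and 0.110% under reciprocal overlap with Hoxa11. Leaving out one Hoxa11 replicate gave 0.494% to 0.832%. The share on chromosome X was 4.49% under reciprocal overlap, 5.11% beyond 1 kb, 4.77% with the shorter E11.5 list, 6.29% in the wider 50%, 3.90% without dense windows and 6.80% against E11.5 only. The share with an E12.5 neighbour within 10 kb was 35.9% beyond 1 kb, 38.2% with the shorter E11.5 list, 29.5% in the wider 50%, 37.3% without dense windows and 42.2% against E11.5 only. The share within 1 kb of an earlier peak was 66.4% under reciprocal overlap, where overlapping pairs count as near, 9.18% with the shorter E11.5 list, 18.4% in the wider 50%, 15.8% without dense windows and 14.1% against E11.5 only. The Hox windows held 69 E12.5-alone peaks under reciprocal overlap, 33 with the shorter E11.5 list and 6 in the wider 50%. Fewer partners or fewer peaks are built into these settings; other causes were not tested. Read depth is unknown, so absence from an earlier list is not absence of binding. No paired analysis was possible because each Hoxa13 stage has 1 library and no result comes from a test.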
